A study of Mus musculus with 15 samples.

Results

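The enzymes of phenylalanine and tyrosine breakdown were followed through 5 genes, Qdpr, Tat, Hpd, Hgd and Fah, which were listed by name as steps of the pathway, with earlier results of these data known. All 5 have a row in the count table of 23284 gene symbols, and all 5 had enough reads to be tested in each comparison. The table covers poly-A RNA of 15 mouse liver libraries in 3 groups. The 6 Hmgb1-deleted tumours are hepatocellular carcinomas of mice with floxed Hmgb1 alleles and an Albumin-Cre transgene. The 6 floxed tumours are hepatocellular carcinomas of mice with the same floxed alleles and no Cre named in the labels. Mice of both tumour groups had been injected with diethylnitrosamine (DEN, 25 mg/kg) on day 15 after birth, and they then received carbon tetrachloride (CCl4, 0.5 µl/g in corn oil) every week for 15 weeks from week 8. The 3 normal livers are from C57BL/6 mice with no treatment named, so tumour, carcinogen and any strain difference cannot be told apart in a comparison with them, and no treated liver outside a tumour is in the series. Albumin-Cre acts in hepatocytes and in bile duct cells that share their origin, and other cells of a tumour keep the gene. The age at collection and whether tumours came from separate mice are not given, so the p-values below measure the spread between these samples, which may be partly technical.

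In the liver, phenylalanine is hydroxylated to tyrosine with tetrahydrobiopterin as cofactor, and the enzyme encoded by Qdpr, dihydropteridine reductase, regenerates that cofactor. Tyrosine is then taken apart in hepatocytes: tyrosine aminotransferase (Tat) removes the amino group, hydroxyphenylpyruvate dioxygenase (Hpd) makes homogentisate, homogentisate dioxygenase (Hgd) opens the ring, and, after an isomerase step by Gstz1, fumarylacetoacetate hydrolase (Fah) releases fumarate and acetoacetate. Loss of Fah causes hereditary tyrosinaemia with liver damage and liver cancer, loss of Hgd causes alkaptonuria, and Tat is a classic glucocorticoid-induced gene of the liver. The hydroxylating step itself is not analysed here.

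The libraries held between 18973246 and 30929442 counts. Hmgb1, the deleted gene, averaged 14.8 ± 2.76 CPM (reads of a gene brought to one shared library size) in Hmgb1-deleted tumours, 27.9 ± 3.36 CPM in floxed tumours and 23.9 ± 6.07 CPM in normal livers (SD, n = 6, 6 and 3), and it was lower in all 6 Hmgb1-deleted tumours than in all 6 floxed tumours (permutation test, exact and two-sided, on log2(CPM + 1), p = 0.00216, adjusted over 3 comparisons 0.00649). All 8 genes of the hepatocyte list were detected in every group, and their summed level, on average mostly reads of Alb, ran from 96221 to 214193 CPM in Hmgb1-deleted tumours, from 159152 to 362797 CPM in floxed tumours and from 134136 to 161458 CPM in normal livers. Alb, Apoa1, Trf and Fgb averaged more in floxed tumours than in normal livers (Alb 173357 and 95750 CPM). Ttr, Serpina1c, Apob and Cps1 averaged less (Cps1 454 and 3811 CPM), so the list did not move as a whole. Among the markers of other cells, the 6 cholangiocyte genes, most of whose reads were of Spp1, summed to between 205.5 and 6113 CPM in Hmgb1-deleted tumours, between 60.5 and 1766 CPM in floxed tumours and between 67.4 and 79.0 CPM in normal livers. The 7 stellate cell and fibroblast genes summed to between 121.8 and 479.7 CPM in Hmgb1-deleted tumours, between 149 and 1527 CPM in floxed tumours and between 106 and 138 CPM in normal livers. In RNA of whole tissue, fewer cells of a type and less RNA per cell cannot be told apart.

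All 5 genes were highest in normal liver, lowest on average in floxed tumours, and in between, with a wide spread, in Hmgb1-deleted tumours. Tat ran from 201 to 872 CPM in Hmgb1-deleted tumours with a median of 542 CPM, from 169 to 751 CPM in floxed tumours with a median of 374 CPM, and was at 1673, 1660 and 1024 CPM in the normal livers. Every tumour was below every normal liver for Tat, and normal liver 3 was the lowest of its group. Hpd ran from 73.9 to 1252 CPM in Hmgb1-deleted tumours with a median of 437 CPM, from 19.98 to 239 CPM in floxed tumours with a median of 202 CPM, and was at 1869, 1735 and 2388 CPM in the normal livers. Hpd thus had the widest range of the 5 genes within Hmgb1-deleted tumours, and floxed tumour 1 was far below the other 5 floxed tumours, which lay between 167 and 239 CPM. Hgd ran from 179 to 555 CPM in Hmgb1-deleted tumours with a median of 351 CPM, from 127 to 290 CPM in floxed tumours with a median of 214 CPM, and was at 752, 728 and 840 CPM in the normal livers. As for Tat and Hpd, no tumour of either genotype reached the lowest normal liver.

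Fah, the last enzyme of the route, ran from 273 to 720 CPM in Hmgb1-deleted tumours with a median of 468 CPM, from 264 to 489 CPM in floxed tumours with a median of 384 CPM, and was at 653, 706 and 835 CPM in the normal livers. Hmgb1-deleted tumour 4 was within the range of the normal livers, and the other 11 tumours were below it. Qdpr, the cofactor enzyme, ran from 124 to 491 CPM in Hmgb1-deleted tumours with a median of 286 CPM, from 131 to 293 CPM in floxed tumours with a median of 194 CPM, and was at 431, 470 and 670 CPM in the normal livers. Hmgb1-deleted tumours 3 and 4 were within the range of the normal livers for Qdpr, and the other 10 tumours were below it. Together the 5 genes took between 0.125 and 0.381% of all counts in Hmgb1-deleted tumours, between 0.0964 and 0.180% in floxed tumours and between 0.490 and 0.504% in normal livers.

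**Figure D1:**
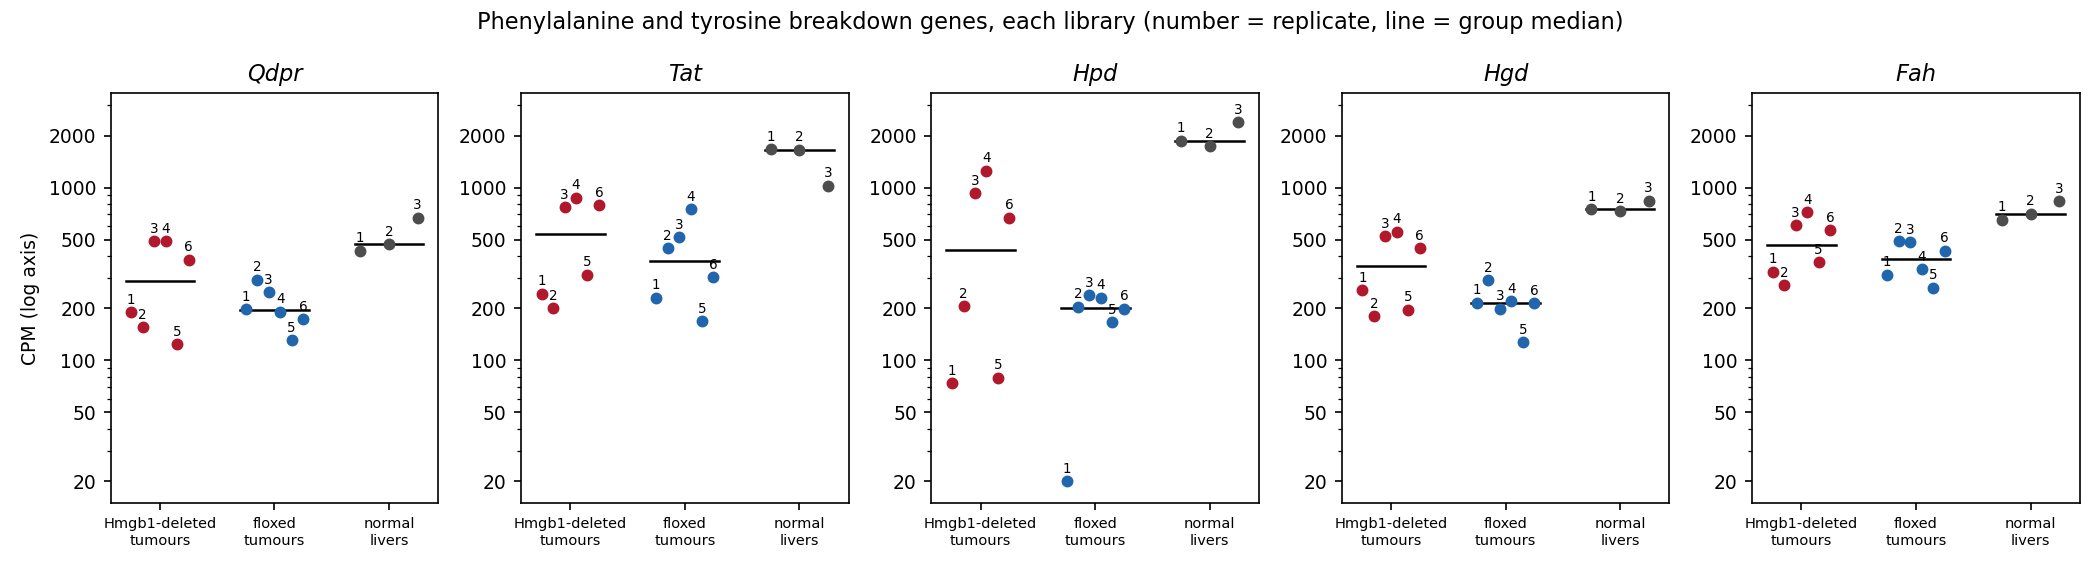
CPM of each gene in each library on a log axis, with 1 point per library labelled by its replicate number and a line at the group median, for 6 Hmgb1-deleted tumours, 6 floxed tumours and 3 normal livers. Hmgb1-deleted tumours 3, 4 and 6 sit above all floxed tumours in every panel, and Hpd in floxed tumour 1, at 19.98 CPM, is the lowest point shown.

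The design first asks what hepatic deletion of Hmgb1 changes in these tumours. Means of all 5 genes were higher in Hmgb1-deleted than in floxed tumours, yet none of the 5 passed the test. The largest difference was in Hpd, at 534 ± 492 CPM in Hmgb1-deleted tumours and 177 ± 80.9 CPM in floxed tumours (SD, n = 6 each), a log2 fold change of 1.60 ± 0.73 (SE) with a 95% interval of 0.03 to 3.17 and an adjusted p of 0.196 (edgeR quasi-likelihood test, Benjamini-Hochberg). Hgd followed at 359 ± 168 CPM in Hmgb1-deleted tumours and 211 ± 52.1 CPM in floxed tumours, a log2 fold change of 0.78 ± 0.31 with an interval of 0.12 to 1.44 and an adjusted p of 0.135. For Qdpr the log2 fold change was 0.59, with an interval from -0.17 to 1.35 and an adjusted p of 0.327. Tat had 0.42, with an interval from -0.55 to 1.38 and an adjusted p of 0.614, and Fah had 0.32, with an interval from -0.24 to 0.88 and an adjusted p of 0.490. By this test 7.78% of the 13433 genes were called, 4.45% as higher and 3.33% as lower, 598 and 447 genes. With library totals and no scaling factor the split was 982 higher and 257 lower, Hgd was called at a log2 fold change of 0.91 (adjusted p 0.0172), and the median of all genes was 0.20. Hpd and Hgd were the 2 of the 5 with an unadjusted p under 0.05, and neither DESeq2 nor limma-voom called any of the 5. The median log2 fold change was 0.59 over the 5 genes and 0.02 over all genes tested.

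The 6 Hmgb1-deleted tumours did not behave alike for these genes. Tumours 3, 4 and 6 were each above every floxed tumour for all 5 genes, which held for 10.7% of the 13433 tested genes. Their Hpd levels were 924, 1252 and 669 CPM, against a highest floxed tumour of 239 CPM. Tumours 1, 2 and 5 lay within the floxed range or below it, with Hpd at 73.9, 206 and 79.3 CPM, and Qdpr in tumour 5 was below all 6 floxed tumours. The groups as wholes thus overlapped for each of the 5 genes, while 2.61% of all tested genes had every Hmgb1-deleted tumour above every floxed one and 2.32% had every one below.

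Markers of liver zones, of cell division and of some other cell types also differed between Hmgb1-deleted tumours 3, 4 and 6 and tumours 1, 2 and 5. These sets were picked after the levels of the 5 enzymes were seen, so the contrast is a description. The share of all tested genes that separate the 2 sets was not counted. The 7 genes of pericentral hepatocytes, all detected in every group, summed to 5723, 9827 and 4836 CPM in Hmgb1-deleted tumours 3, 4 and 6, within 823 to 9827 CPM over all 6 Hmgb1-deleted tumours, against 466 to 2020 CPM in floxed tumours and 11386 to 15153 CPM in normal livers. The 7 periportal genes summed to 4693, 5101 and 3256 CPM in those 3 tumours, within 884 to 5101 CPM in Hmgb1-deleted tumours, against 1056 to 2926 CPM in floxed tumours and 5945 to 7032 CPM in normal livers. On group averages Cyp2e1 gave most of the pericentral sum. Lect2, Arg1 and Gls2 averaged lower in Hmgb1-deleted than in floxed tumours (Lect2 71.6 and 83.4, Arg1 669 and 873, Gls2 216 and 232 CPM). Lgr5 was level, at 2.47 and 2.43 CPM, and the other genes of both zone lists averaged higher. The 5 genes of dividing cells summed to 23.3, 30.5 and 37.0 CPM in tumours 3, 4 and 6 and to 117.5, 104.0 and 128.9 CPM in Hmgb1-deleted tumours 1, 2 and 5, against 18.2 to 95.8 CPM in floxed tumours and 6.11 to 7.70 CPM in normal livers. The 6 cholangiocyte genes summed to 276, 205 and 399 CPM in tumours 3, 4 and 6. In Hmgb1-deleted tumours 1, 2 and 5 they summed to 967, 6113 and 1147 CPM, against 60.5 to 1766 CPM in floxed tumours. The 7 stellate cell and fibroblast genes summed to 122, 158 and 131 CPM in tumours 3, 4 and 6. In Hmgb1-deleted tumours 1, 2 and 5 they summed to 421, 480 and 371 CPM, against 149 to 1527 CPM in floxed tumours. Among Hmgb1-deleted tumours both lists were thus lower where the 5 enzymes were higher. The 6 endothelial genes summed to 205, 215 and 239 CPM in tumours 3, 4 and 6 and to 172, 112 and 143 CPM in tumours 1, 2 and 5, against 163 to 415 CPM in floxed tumours and 138 to 231 CPM in normal livers. The macrophage, lymphocyte and neutrophil lists overlapped between the 2 sets, and so did the general hepatocyte list. That list summed to 214193, 148551 and 206794 CPM in tumours 3, 4 and 6. In tumours 1, 2 and 5 it summed to 163344, 96221 and 121053 CPM. The part of these markers in the levels of the 5 genes was not tested.

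Floxed tumours were compared with normal liver to ask what differs between carcinogen-induced tumours that keep Hmgb1 and untreated tissue. All 5 genes fell, beside 23.8% of 13784 tested genes called lower, 24.9% called higher and 48.7% called in either direction, and for each of the 5 all 6 floxed tumours were below all 3 normal livers, as they were for 23.4% of tested genes. Hpd fell most, to 8.85% of its mean in normal liver, with 177 ± 80.9 CPM in floxed tumours and 1997 ± 345 CPM in normal livers (SD, n = 6 and 3), a log2 fold change of -3.49 ± 0.54 (SE) and an adjusted p of 0.000556. Among all tested genes, 0.863% had a log2 fold change as low as that of Hpd or lower. Hgd fell by 1.87 ± 0.22 on the log2 scale (adjusted p 9.05e-05) and Tat by 1.84 ± 0.41 (adjusted p 0.00430), to 27.3% and 27.7% of their means in normal liver. Qdpr fell by 1.35 ± 0.25 (adjusted p 0.00136), to 39.2% of its mean in normal liver. Fah fell least, by 0.92 ± 0.22 (adjusted p 0.00681), to 52.8% of its mean in normal liver. The median log2 fold change was -1.84 over the 5 genes and 0.06 over all genes tested. All genes called split into 3437 higher and 3277 lower, and into 4363 and 2509 with upper-quartile scaling, which put the median of all genes at 0.23. All 5 calls held in each of the 19 alternatives run, with adjusted p-values up to 0.036.

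**Figure D2:**
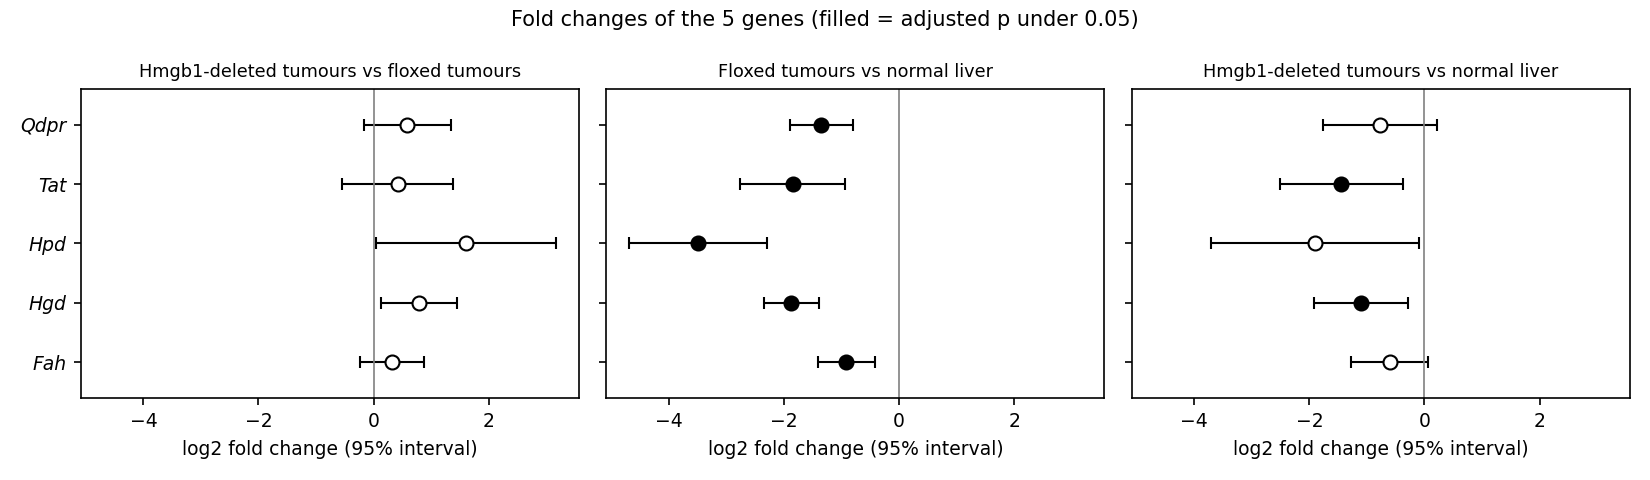
Log2 fold change of each gene with its 95% interval, for Hmgb1-deleted tumours over floxed tumours, floxed tumours over normal liver and Hmgb1-deleted tumours over normal liver, with filled points where the adjusted p was under 0.05. No point is filled on the left, all 5 are filled and below 0 in the middle, with Hpd lowest at -3.49, and Tat and Hgd are filled on the right. Of all tested genes 7.78%, 48.7% and 34.7% were called in these comparisons, from left to right.

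Hmgb1-deleted tumours were set against the same 3 normal livers, so the comparison shares its normal samples with the one above. Tat and Hgd fell, 2 of the 5 genes, beside 16.6% of tested genes called lower, 18.1% called higher and 34.7% called in either direction. Tat averaged 532 ± 310 CPM in Hmgb1-deleted tumours and 1452 ± 371 CPM in normal livers, a log2 fold change of -1.44 ± 0.48 with an adjusted p of 0.0423. Hgd had a log2 fold change of -1.10 ± 0.37 and an adjusted p of 0.0423, at 46.4% of its mean in normal liver. Hpd had a larger fold change than either, -1.91 ± 0.81, but with the spread of the Hmgb1-deleted tumours its adjusted p was 0.0904. DESeq2 and limma-voom called Hpd lower, with adjusted p-values of 0.0324 and 0.0332. For Qdpr the log2 fold change was -0.77, with an interval from -1.77 to 0.22 and an adjusted p of 0.196. Fah had -0.61, with an interval from -1.28 to 0.07 and an adjusted p of 0.140.

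For Tat, Hpd and Hgd all 6 Hmgb1-deleted tumours were below all 3 normal livers, as they were for 19.1% of tested genes (18.4% had all 6 above), and for Fah and Qdpr 5 and 4 of the 6 were. The median log2 fold change was -1.10 over the 5 genes and 0.05 over all genes. All genes called split into 2492 higher and 2295 lower, into 3390 and 1578 with upper-quartile scaling, which called none of the 5, and into 2969 and 1062 with no scaling factor. The call of Tat was lost in 8 and that of Hgd in 9 of 19 alternatives. Leaving out any 1 of Hmgb1-deleted tumours 1, 2 and 5 or of the normal livers ended both calls.

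The mix of the 5 transcripts differed between libraries as well as their level. Reads of each gene were set against reads of Fah in the same library, which takes out library size and scaling. Fah fell least of the 5 in floxed tumours against normal liver, so lower average ratios there follow from the fold changes above. Hpd had between 0.215 and 1.74 reads per Fah read in Hmgb1-deleted tumours with a median of 0.966, between 0.0639 and 0.686 in floxed tumours with a median of 0.478, and between 2.46 and 2.86 in normal livers. Hmgb1-deleted tumours 3, 4 and 6, at 1.52, 1.74 and 1.18, had more Hpd per Fah read than any floxed tumour, and less than any normal liver. Tumours 1 and 5 of the same group, at 0.226 and 0.215, were below 5 of the 6 floxed tumours. Hgd had between 0.534 and 0.859 reads per Fah read in Hmgb1-deleted tumours, between 0.412 and 0.689 in floxed tumours and between 1.01 and 1.15 in normal livers, so no tumour reached the normal range. Tat had between 0.736 and 1.40 reads per Fah read in Hmgb1-deleted tumours, between 0.639 and 2.23 in floxed tumours and between 1.23 and 2.56 in normal livers, with overlap of all 3 groups. Qdpr had between 0.336 and 0.810 reads per Fah read in Hmgb1-deleted tumours, between 0.401 and 0.632 in floxed tumours and between 0.661 and 0.803 in normal livers. These ratios are given as descriptions, with no test, and they compare libraries, not the levels of different genes, since gene length was not taken into account.

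**Figure D3:**
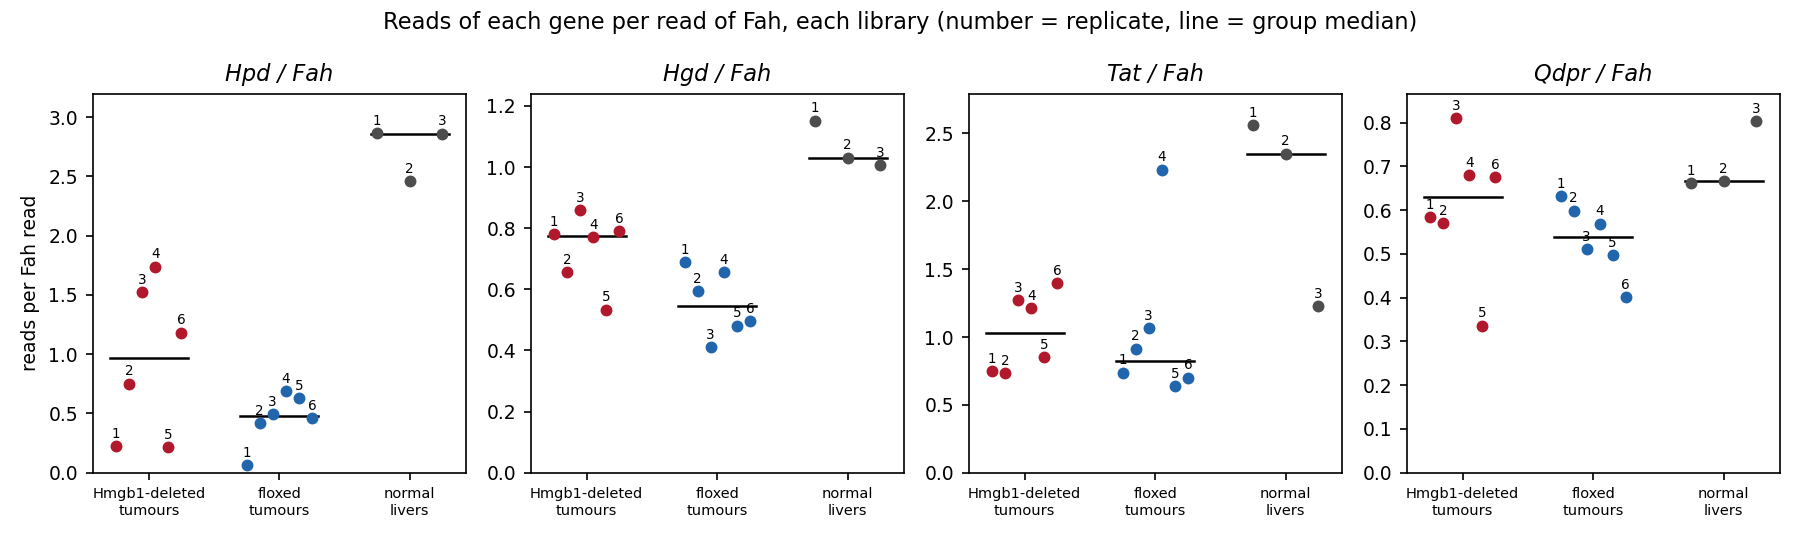
Reads of Hpd, Hgd, Tat and Qdpr per read of Fah in each library, with 1 point per library labelled by replicate number and a line at the group median. Hpd per Fah read is between 2.46 and 2.86 in normal livers and at most 1.74 in any tumour, and floxed tumour 4 stands above the other floxed tumours in Tat per Fah read, at 2.23.

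The start sites of the genes that fell most and least in floxed tumours against normal liver, Hpd and Fah, are shown to set the pair side by side. Each sequence runs from 250 bases before the start site to 50 after it, 5′ to 3′ on the coding strand, from RefSeq on GRCm38.p6, which is not the build the reads were mapped to, with CpG dinucleotides in capitals. Hpd lies on the minus strand at chr5:123182674-123182973, and Fah on the minus strand at chr7:84605893-84606192.
Hpd: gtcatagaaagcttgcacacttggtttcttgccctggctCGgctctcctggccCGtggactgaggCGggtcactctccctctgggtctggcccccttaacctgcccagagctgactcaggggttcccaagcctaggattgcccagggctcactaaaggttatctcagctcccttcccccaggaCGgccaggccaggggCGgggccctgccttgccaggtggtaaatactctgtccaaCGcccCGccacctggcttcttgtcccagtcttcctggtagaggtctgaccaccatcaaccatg
Fah: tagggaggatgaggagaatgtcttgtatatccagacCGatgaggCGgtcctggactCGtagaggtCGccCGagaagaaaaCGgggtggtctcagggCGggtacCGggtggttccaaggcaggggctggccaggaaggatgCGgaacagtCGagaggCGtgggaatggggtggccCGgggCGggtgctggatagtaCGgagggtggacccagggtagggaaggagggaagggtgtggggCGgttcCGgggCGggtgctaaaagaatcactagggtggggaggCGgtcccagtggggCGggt
The Hpd sequence holds 7 CpG dinucleotides, the median of 32851 mouse promoters of this length, at 61.3% G and C. The Fah sequence holds 19 at 64.3%, and 71.9% of promoters hold fewer. Of the other 3 genes, Qdpr had 23 CpG dinucleotides, Tat had 5 and Hgd had 2. Searched on both strands, the letters GTTAAT (an arm of the HNF1 site, in 7.10% of promoters), CAAAGTC (HNF4, 4.44%) and TGTTTAC (FOXA, 3.65%) were in none of the 5 windows. The GC box GGGCGG, in 35.7% of promoters, was found 5 times in Fah, 3 times in Qdpr and once in Hpd. CCAAT, in 37.4% of promoters, was found 3 times in Tat and 2 times each in Qdpr and Hgd, and TATAAA, in 13.6%, once in Hgd. TGTTCT, an arm of the glucocorticoid receptor site in 18.97% of promoters, was in the Qdpr window alone. A match is a description of letters, not a bound site, and a missing one says only that these letters are not in this window.

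The other steps of the tyrosine route, from a list of 7 genes of which 5 were tested, fell in part as the 5 enzymes did. In floxed tumours against normal liver, 4 of these 5 fell and none rose, beside 23.8% and 24.9% of all tested genes. The median log2 fold change was -0.78 over these 5 and 0.06 over all genes tested. Got1 and Got2, the cytosolic and mitochondrial aspartate aminotransferases that can also act on aromatic amino acids, fell by 1.45 ± 0.29 and 0.73 ± 0.20 on the log2 scale (adjusted p 0.00238 and 0.0119). Fh1, fumarate hydratase, which takes up the fumarate released by Fah, fell by 0.78 ± 0.20 (adjusted p 0.00878). Gstz1, the isomerase between Hgd and Fah, fell by 0.82 ± 0.25 (adjusted p 0.0203), a call lost in 4 of 19 alternatives. Mif, which has tautomerase activity on phenylpyruvates, did not pass the test, and Hpdl and Il4i1 had too few reads to be tested. In Hmgb1-deleted tumours against normal liver only Got1 of the 5 was called, at -1.93 ± 0.52 (adjusted p 0.0204, lost in 3 of 19 alternatives), beside 34.7% of all tested genes. In Hmgb1-deleted against floxed tumours none was called, beside 7.78% of all tested genes. There 1 had an unadjusted p under 0.05 (Got2), and the list median was 0.14.

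The 8 genes that make and recycle tetrahydrobiopterin beside Qdpr were mostly not called. In floxed tumours against normal liver 1 of 8 fell, beside 23.8% of all tested genes. This was Gch1, which opens the synthesis of the cofactor, at 103 CPM on average in floxed tumours and 206 CPM in normal livers. Its log2 fold change was -0.99 ± 0.24 (adjusted p 0.00637). No gene of this list was called in Hmgb1-deleted tumours against normal liver or against floxed tumours, beside 34.7% and 7.78% of all tested genes. In each, 1 gene had an unadjusted p under 0.05, Gch1 against normal liver and Dnajc12 against floxed tumours. The list medians were -0.04 for Hmgb1-deleted over floxed tumours, -0.08 for floxed tumours over normal liver and -0.11 for Hmgb1-deleted tumours over normal liver.

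Of 6 transporters of aromatic amino acids, Slc16a10, which carries phenylalanine, tyrosine and tryptophan across cell membranes, was lower in both tumour groups than in normal liver. It averaged 45.5 ± 26.6 CPM in Hmgb1-deleted tumours, 28.7 ± 5.91 CPM in floxed tumours and 129 ± 22.2 CPM in normal livers (SD, n = 6, 6 and 3), with log2 fold changes against normal liver of -1.50 ± 0.44 in Hmgb1-deleted (adjusted p 0.0269) and -2.16 ± 0.18 in floxed tumours (adjusted p 1.26e-05). Slc43a2, a transporter of large neutral amino acids, was higher in floxed tumours than in normal liver, at 0.93 ± 0.33 (adjusted p 0.0371), a call lost in 6 of 19 alternatives. Slc7a5 was lower and Slc3a2, its partner subunit, higher in Hmgb1-deleted tumours than in normal liver, at -0.94 (adjusted p 0.0174) and 0.78 (adjusted p 0.0153), calls lost in 5 and 2 of 19 alternatives. Slc43a1 was the only gene of the 5 lists called between the tumour groups, where 7.78% of all tested genes were called. It averaged 3.08 ± 2.67 CPM in Hmgb1-deleted tumours and 15.2 ± 8.38 CPM in floxed tumours, a log2 fold change of -2.30 ± 0.63 (adjusted p 0.0429), and the call was lost in 9 of 21 alternatives. Of the 6 transporters 1 was called higher and 1 lower in floxed tumours against normal liver, beside 24.9% and 23.8% of all tested genes. In Hmgb1-deleted tumours against normal liver 1 was called higher and 2 lower, beside 18.1% and 16.6%.

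The list of the glucocorticoid receptor and genes it is known to induce, and that of hepatocyte transcription factors, each included genes called higher and genes called lower. Of 6 genes of the glucocorticoid receptor and its induced genes, Nr3c1, the receptor, fell in both tumour groups against normal liver, by 0.79 ± 0.14 in Hmgb1-deleted (adjusted p 0.00448) and 0.75 ± 0.14 in floxed tumours (adjusted p 0.00135). Fkbp5, a receptor target, rose against normal liver in both, at 0.77 ± 0.25 in Hmgb1-deleted (adjusted p 0.0381) and 1.46 ± 0.52 in floxed tumours (adjusted p 0.0395), and Per1 rose in Hmgb1-deleted tumours, at 1.35 ± 0.46 (adjusted p 0.0448), a call lost in 12 of 19 alternatives. The Fkbp5 calls were lost in 8 of 19 alternatives in Hmgb1-deleted and 5 of 19 in floxed tumours. Of 7 hepatocyte transcription factors, 1 rose and 2 fell in Hmgb1-deleted tumours against normal liver, beside 18.1% and 16.6% of all tested genes, and 1 rose and 3 fell in floxed tumours, beside 24.9% and 23.8%. Cebpa averaged 302 CPM in Hmgb1-deleted tumours, 217 CPM in floxed tumours and 502 CPM in normal livers, with log2 fold changes against normal liver of -0.72 ± 0.25 (adjusted p 0.0488) and -1.21 ± 0.17 (adjusted p 0.000296), of which the first was lost in 13 of 19 alternatives. Foxa3 rose in both, by 0.91 ± 0.28 in Hmgb1-deleted (adjusted p 0.0313, lost in 5 of 19 alternatives) and 1.39 ± 0.26 in floxed tumours (adjusted p 0.00149). None of these 13 genes was called between the tumour groups, beside 7.78% of all tested genes, and 2 of them, Cebpa and Foxa1, had an unadjusted p under 0.05.

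The 5 lists held 5, 8, 6, 6 and 7 tested genes. In floxed tumours against normal liver 13 of these genes were called, beside 48.7% of all tested genes. In Hmgb1-deleted tumours against normal liver 10 were, beside 34.7%. Of the 13 calls in floxed tumours, 9 held in every alternative run, those of Got1, Got2, Fh1, Gch1, Slc16a10, Nr3c1, Cebpa, Foxa1 and Foxa3. Of the 10 in Hmgb1-deleted tumours against normal liver, only that of Nr3c1 did.

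**Figure D4:**
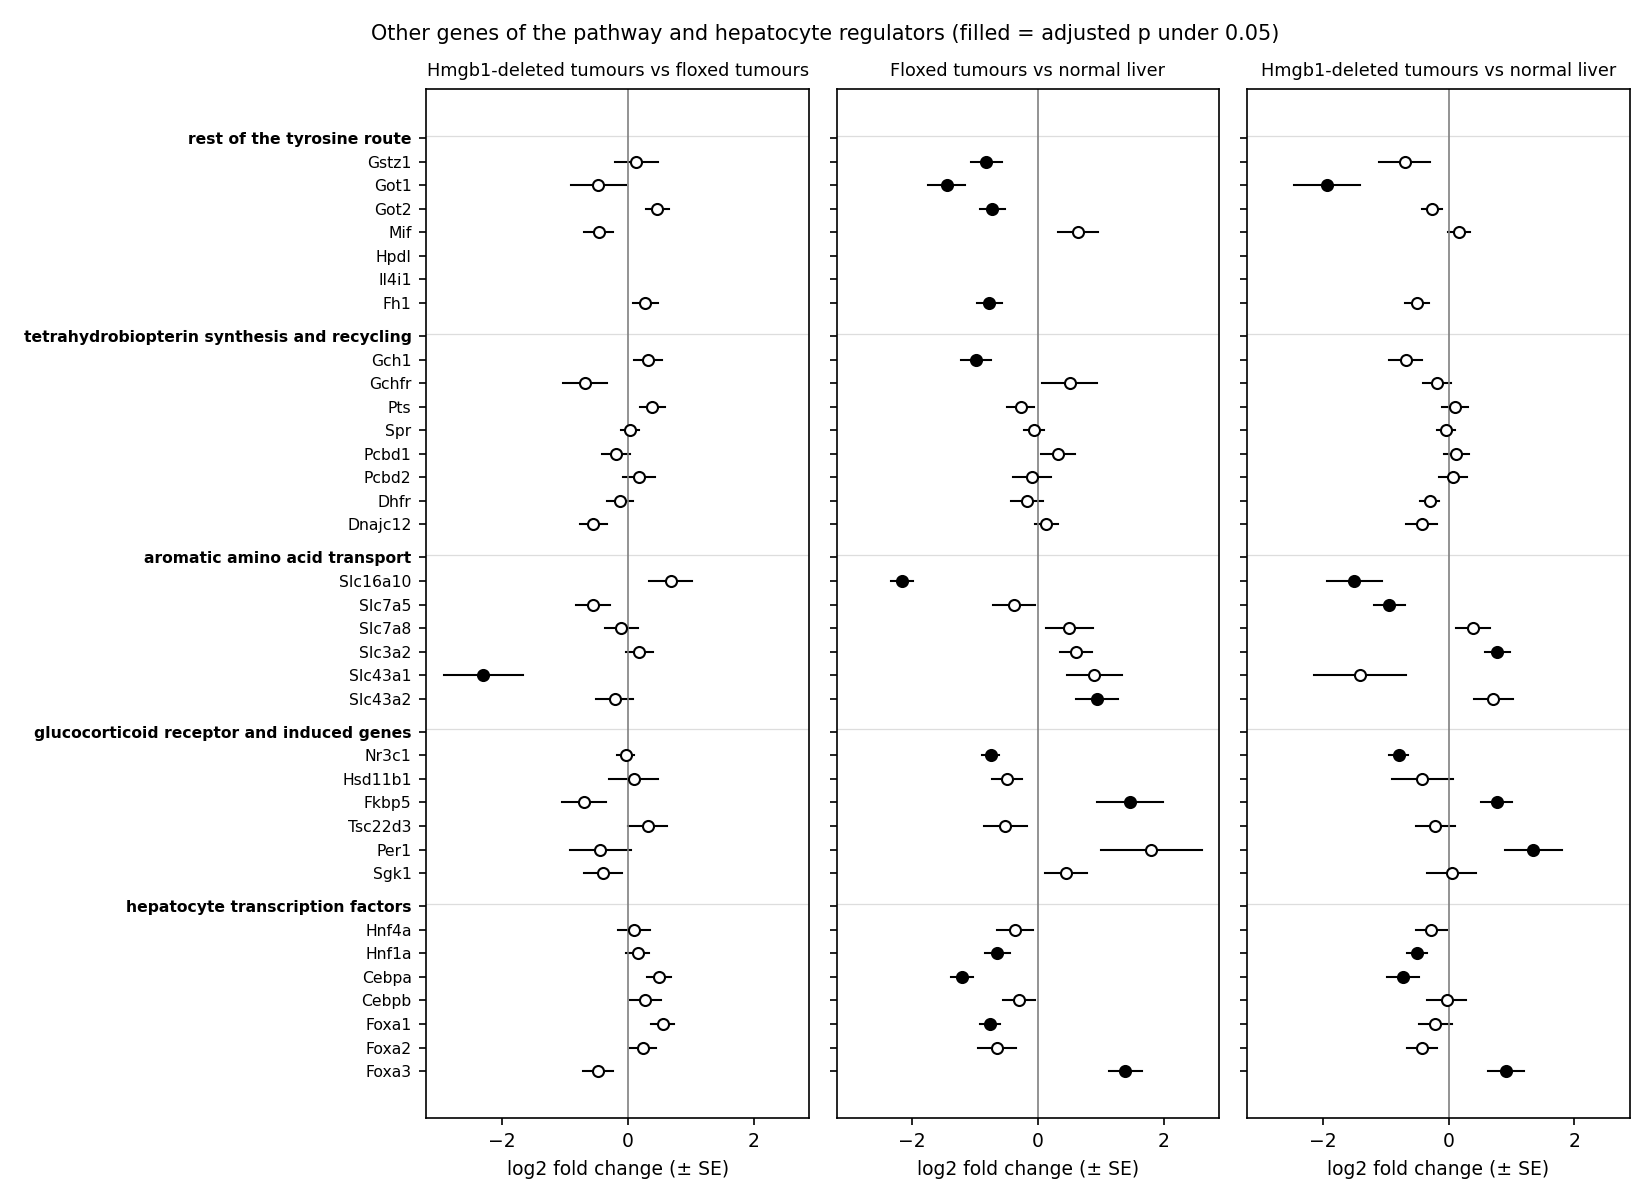
Log2 fold change ± SE of the other genes of the tyrosine route, tetrahydrobiopterin, amino acid transport, glucocorticoid response and hepatocyte transcription factors in the 3 comparisons, with filled points where the adjusted p was under 0.05; Hpdl and Il4i1 have no point because they were not tested. On the left stands 1 filled point, Slc43a1 at -2.30, and 13 and 10 stand in the middle and on the right. Of all tested genes 7.78%, 48.7% and 34.7% were called in these comparisons, from left to right.

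Within the 6 floxed tumours the levels of the 5 genes were compared pair by pair. Over the 10 pairs of genes, Pearson's r of log2(CPM + 1) ran from -0.01 to 0.85, and no pair passed an exact permutation test after adjustment over 20 relations, 10 in each tumour group, with a lowest adjusted p of 0.139 for Pearson's r and 0.133 for Spearman's rho. The values of r rested on few libraries. Without the 2 libraries farthest from the median of the first gene of a pair, r went from 0.85 to -0.82 for Qdpr with Hgd. For Tat with Fah it went from 0.56 to 0.92. In Hmgb1-deleted tumours the values fall into the sets 3, 4, 6 and 1, 2, 5, so no correlation across the 6 is given as a result. Over the 12 tumours, with each group's mean taken out, the genes most like each of the 5 were picked from 8454 genes by Pearson's r, as a description. They were Nit2, Rdh7 and Cth for Tat (r from 0.93 to 0.95), Klhl7, Rgn and Ndrg2 for Hpd (0.95 to 0.96), Acbd5, Dennd5b and Phyh for Hgd (0.97 to 0.98), Dpys, Adra1b and Aup1 for Fah (0.95 to 0.98), and Aldh4a1, Gstt1 and Gm5424 for Qdpr (0.97 to 0.98). All points share the libraries and their scaling, and the order rests in part on the gap between the 2 sets of Hmgb1-deleted tumours.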

How the data were processed

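Column-purified poly-A RNA of 12 mouse liver tumours and 3 normal livers was made into TruSeq libraries, per the labels' protocols. The authors deposited whole-number read counts per gene symbol, with no normalization. The submitters' processing notes name HTSeq 0.6.1, Bowtie2 2.2.4, TopHat2 2.1.0 and bcl2fastq 1.8.4, and mm9 as the mouse build. Settings, annotation and strand are not given in the sources for these data. Tat and Hgd overlap a pseudogene and a long non-coding RNA in RefSeq (GRCm38.p6), neither of which is in the table, so reads of these could not be told apart from theirs.

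Groups came from the labels. Each pair of groups was analysed on its own in R 4.3.3, where genes passing edgeR 4.0.16's filterByExpr were scaled with TMM factors and tested by the robust quasi-likelihood F test, with group as the only term, on the 2 groups compared. P-values were adjusted by Benjamini-Hochberg over all tested genes, and genes under 0.05 were called higher or lower, with no fold threshold. Standard errors come from the F statistic. CPM values are counts scaled by TMM over all 15 libraries, and means are given ± SD. Counting error at these depths is small against the spread between samples. No library repeated another of its group, since chi-square per degree of freedom within a group was at least 27.9. Pairs of libraries from different groups were not compared in this way. No column of other samples was found. The count test was checked on simulated counts.

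The 5 genes and the pathway and marker lists were chosen with earlier results of these data known. Named genes are the 5 enzymes, Hmgb1, genes of the 5 pathway lists, chiefly those called, and the 3 genes most correlated with each enzyme. Alternatives were RLE and upper-quartile scaling, DESeq2 1.42.0, limma-voom (limma 3.58.1) with sample weights, 2 other filters on low counts, 1 fit over all 15 libraries, a block on replicate number, and single libraries left out. Library totals with no factor and numbers 1 to 3 with no block were added after seeing the data. Fits without Hmgb1-deleted tumours 3, 4 and 6 or without 2 and 5 were also run. Their values are not reported, because those sets were picked after their values were seen: without 3, 4 and 6 the fold changes of the 5 enzymes over floxed tumours turned negative, which the choice itself fixes.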

Additional observations from a re-analysis of the deposited data

Results flagged for a closer look

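Hpd in floxed tumour 1 was at 19.98 CPM, the lowest of its group, with a gap to the next floxed tumour that took most of the group's range. The other 4 enzymes of that tumour were within the range of the other 5 floxed tumours. Without floxed tumour 1 the log2 fold change of Hpd in floxed tumours over normal liver was -3.25, and that in Hmgb1-deleted over floxed tumours was 1.37 (adjusted p 0.258, edgeR). Hmgb1 in Hmgb1-deleted tumour 1 was at 9.59 CPM, likewise far below the others of its group. These were 2 of the 12 groups of values checked, and chance alone puts about 5% of groups past this limit.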

How the results depend on the processing

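All 5 enzymes were lower in floxed tumours than in normal liver under every alternative, with 5 calls each time. In that comparison all genes called ran from 4860 to 6966 with single libraries left out. The 5 log2 fold changes of Hmgb1-deleted over floxed tumours were positive under each alternative given here, but they rest on Hmgb1-deleted tumours 3, 4 and 6, since the other 3 lay within the floxed range or below it. The number of enzymes called there was 0 with each single library left out and 1 with library totals and no factor. The count of all genes in that comparison, 1045, was 1954 with DESeq2, 1629 with 1 fit over all 15 libraries and between 589 (without Hmgb1-deleted tumour 4) and 1054 with single libraries left out. In Hmgb1-deleted tumours against normal liver, the 2 enzymes called became 0 with upper-quartile factors, 0 to 2 with single libraries left out, and 1 with numbers 1 to 3 and no block. Over all alternatives that left out no single library the number ran from 0 to 3, and Hpd gained a call in 3 of them. All genes called there, 4787, ranged from 2113 to 4912 with single libraries left out (2113, 2227 and 3109 without normal liver 1, 2 and 3) and from 3055 to 6711 under the other alternatives. The cause was not tested. Same-numbered tumours of the 2 genotypes did not deviate together, with correlations from -0.27 to 0.23, and not every sample correlated best with its own number, so the numbers were not taken as pairs. With the replicate number as a block, 860 genes were called in Hmgb1-deleted against floxed tumours and 0 of the 5 enzymes, 6579 and 5 in floxed tumours against normal liver, and 3055 and 2 in Hmgb1-deleted tumours against normal liver, where Tat was lost (adjusted p 0.0619) and Hpd gained (0.0399). With 3 normal livers, calls against them rest on few libraries, and counting error is small beside the spread between tumours.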
